A study of Mus musculus with 43 samples.

Results

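The tunicamycin response of mouse embryonic fibroblasts (MEF) was compared between cells with control siRNA and cells with an siRNA against Son, in 16 of the 43 libraries of the series. These 16 were chosen by their labels: every library of the siRNA experiment, in 4 groups of 4. In the control groups cells carried a control siRNA and received either the solvent DMSO or tunicamycin, and in the Son groups they carried Son siRNA with DMSO or tunicamycin. All 16 are labelled as the cell line MEF, an embryonic fibroblast, and the labels used here state neither the dose and duration of tunicamycin nor the siRNA sequences. The remaining libraries come from CRISPR activation (CRISPRa) of Son and from drug treatments, and of these the 12 CRISPRa libraries serve as a comparison at the end. RNA was poly(A)-selected, libraries were stranded, and levels are given in FPKM (fragments scaled to transcript length and to the fragments sequenced in the library).

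Tunicamycin inhibits the enzyme that starts the N-glycan precursor, so that glycoproteins misfold in the endoplasmic reticulum (ER). The unfolded protein response that follows runs through the ER membrane sensors IRE1, PERK and ATF6. IRE1 splices the Xbp1 RNA, ATF6 is cut in the Golgi to a transcription factor, and PERK slows translation and raises ATF4, which turns on amino acid and redox genes. XBP1 and ATF6 raise chaperones, oxidoreductases and the machinery that sends misfolded proteins to the proteasome, called ER-associated degradation. Son encodes an RNA-binding scaffold of nuclear speckles, needed for efficient splicing of some introns.

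The response is the log2 fold change from DMSO to tunicamycin on log2(FPKM + 1), and the difference is the response with Son siRNA minus the response with control siRNA. A negative difference means a weaker rise or a deeper fall with Son siRNA, and a positive difference means a shallower fall or a stronger rise. Tests are limma's, with p-values adjusted by Benjamini-Hochberg over all 10883 genes with a mean of at least 1 FPKM, and a gene counted as called at an adjusted p under 0.05. Libraries of a group are called A to D after their columns. Nothing says that they came from separate cultures, so the p-values reflect the spread among these libraries alone, which may be technical. Fewer cells and less RNA per cell cannot be told apart in bulk samples.

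Summed FPKM ran from 393033 to 423289 per library, and relative depth, read from the steps of the lowest values, from 0.905 to 1.21 times that of control DMSO library A. The absolute depth is unknown. Library D of control tunicamycin stood apart most. Its root mean square deviation from the mean of the other libraries of its group was 0.202 on the log2 scale. The same measure was 0.123 to 0.186 for the other libraries. Many results are therefore given with and without library D, but not every result in which it stood out. Named genes in which it was marked as an outlier are listed under the results flagged. Fibroblast markers were abundant as a sum, but only 6 of the 9 averaged 1 FPKM or more. The 9 summed to 2846 to 2961 FPKM in control DMSO, 1437 to 1832 in control tunicamycin, 2683 to 2861 in Son DMSO and 1830 to 1882 in Son tunicamycin. Of these markers Twist2 alone was called in the difference (0.28, adjusted p = 0.0401). The 5 endothelial markers summed to at most 0.271 FPKM with 2 at 0, the 5 skeletal muscle markers to at most 1.13 FPKM, and the 5 epithelial ones to 8.13 to 14.7 FPKM. The 5 macrophage markers, with 1 at 0, summed to 6.16 to 7.23 FPKM in control DMSO, 5.62 to 6.55 in control tunicamycin, 5.32 to 6.43 in Son DMSO and 3.72 to 4.27 in Son tunicamycin, which lay below every other library. The 5 neural markers summed to 53.4 to 63.8, 36.4 to 41.4, 53.5 to 55.5 and 41.6 to 45.8 FPKM in the same order. Of these 5 sets only 1 macrophage, 1 epithelial and 4 neural markers averaged 1 FPKM or more and were tested, and none was called. No endothelial or skeletal muscle marker was tested, so none of them could be called. The part of cell composition in the results was not tested.

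Son (chromosome 16, 91647506 to 91679221, mm10) checks the labels. In control siRNA libraries its level was 42.6, 43.1, 44.9 and 43.3 FPKM in DMSO (A to D) and 36.5, 35.02, 37.01 and 35.5 FPKM in tunicamycin. With Son siRNA, Son stood at 20.8, 21.6, 23.1 and 21.5 FPKM in DMSO and at 15.1, 15.8, 16.8 and 14.1 FPKM in tunicamycin. Every Son siRNA library was below every control library, and RNA remained in all of them. Tunicamycin lowered Son with both siRNAs (−0.26 and −0.47, adjusted p = 3.29e-05 and 6.13e-08), and the difference of these responses was not called (−0.21, SE 0.0603, adjusted p = 0.0831).

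The responses differed for 183 of 10883 genes (1.68%), of which 93 (0.855%) had a negative and 90 (0.827%) a positive difference. The differences were modest. Their sizes ran from 0.13 to 0.76 with a median of 0.27, only 8 exceeded 0.5, and none reached 2-fold. At an unadjusted p under 0.05 there were 2071 genes (19%), 1148 positive (10.5%) and 923 negative (8.48%). These shares are the background for the list counts given at that level below. Without control tunicamycin library D, 160 of the 183 were still called, and the median ratio of the difference to that with all libraries was 0.928. That fit called 230 of the 10883 genes in all, 103 positive and 127 negative. These totals, above those with all libraries, are the background for list counts without library D below. All 183 kept their direction when any 1 of the 16 libraries was left out. Genes called on these same libraries could hardly do otherwise, so this is no test of direction. Only 23 were called in all 16 of these fits and 66 in at least 8. The number called ran from 24 (without Son DMSO library B) to 313 (without control DMSO library B). Under median-ratio scaling the calls split into 114 positive and 185 negative.

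Most called genes responded less with Son siRNA. The response was smaller in size for 148 of the 183, and 143 responded in the same direction with both siRNAs. These counts use the same libraries as the difference itself and describe it. No share over all genes tested was taken for them, so they have no background. Of the 93 genes with a negative difference, 71 rose in tunicamycin with control siRNA. With Son siRNA 44 of these 71 rose too, 17 were not called and 10 fell. A further 11 fell with both siRNAs, deeper with Son siRNA, and 11 fell with Son siRNA and were not called with control siRNA. Of the 90 genes with a positive difference, 84 fell with control siRNA, of which 54 fell with Son siRNA as well, 26 were not called and 4 rose. Another 5 rose with Son siRNA and were not called with control siRNA, and 1 rose with both. Over all genes tested 26.6% rose and 42.4% fell with control siRNA (69% in all), and 26.1% rose and 41.1% fell with Son siRNA (67.2% in all). Between the siRNAs in tunicamycin, 87 of the 93 were lower and 85 of the 90 were higher with Son siRNA, where 20.4% of all genes tested were lower and 30.6% higher (51% in all). In DMSO 39 of the 93 were already lower with Son siRNA and 15 higher, and 12 of the 90 were lower and 16 higher, where 16.1% of all genes tested were lower and 20% higher (36% in all). The difference is built from the control response and from the gap between the siRNAs in each treatment. Genes picked by it are therefore skewed in these counts by selection, and setting them beside the shares over all genes is no test. The plot of the responses of all called genes shows most of both sets drawn towards 0 along the axis of Son siRNA. Genes that fell deeper, rose more or were called with Son siRNA alone do not show this.

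**Figure D1:**
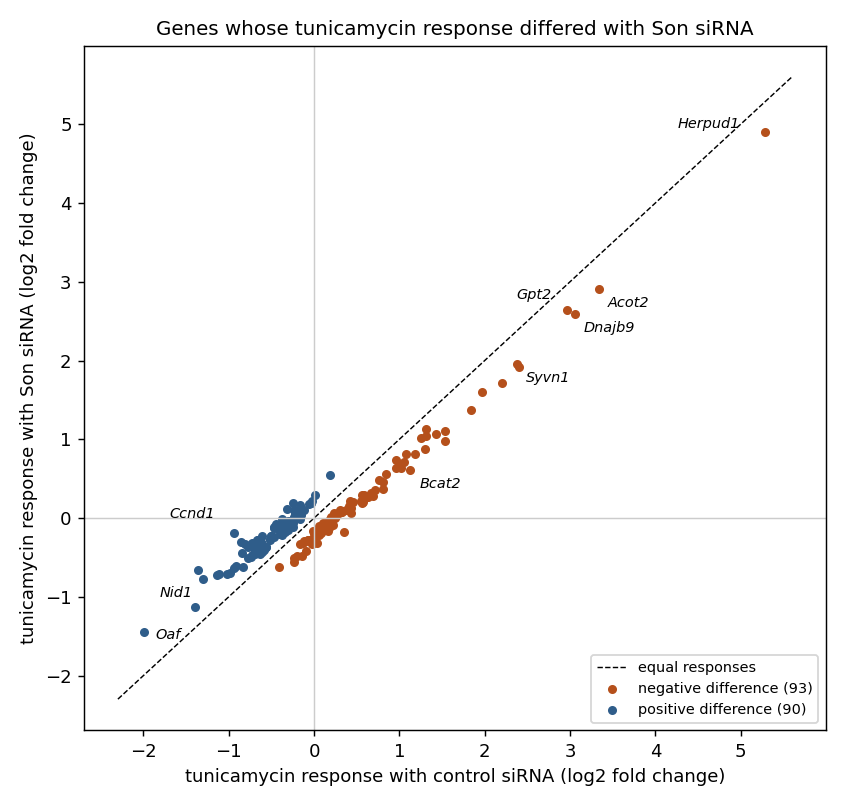
Tunicamycin response (log2 fold change, log2(FPKM + 1) scale) with control siRNA on the x axis and with Son siRNA on the y axis for the 183 called genes, with the dashed line marking equal responses. Genes with a negative difference (93, orange) lie below the line, mostly on its rising side, and genes with a positive difference (90, blue) above it, mostly on its falling side; Herpud1 sits at 5.28 and 4.90.

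Of 32 genes of ER-associated degradation, 4 rose less with Son siRNA, namely Herpud1, Syvn1, Derl1 and Selk, and no gene of this list was called higher. Herpud1 (chromosome 8, 94386438 to 94395377), an ER membrane protein that recruits the degradation machinery, rose from 17.4, 18.1, 16.96 and 18.3 FPKM in control DMSO libraries A to D to 681, 688, 701 and 849.6 FPKM in control tunicamycin. With Son siRNA, Herpud1 rose from 19.6, 21.3, 20.6 and 21.5 to 662, 634, 636 and 664 FPKM. All Son DMSO libraries lay above the control DMSO libraries, and all Son tunicamycin libraries lay below the control tunicamycin libraries. The rise was 41.2-fold with control siRNA and 31.3-fold with Son siRNA (log2 difference −0.38, SE 0.0775, adjusted p = 0.0295, n = 4 libraries per group). Without the high control tunicamycin library D the difference was −0.31 (adjusted p = 0.00611), and it was called in 8 of the 16 fits with a library left out.

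The promoters of Herpud1 and Syvn1 are shown because they hold sequence motifs of the response. The windows run from 250 bases before to 50 bases after the start site, on the strand of the gene, from RefSeq annotation of GRCm38.p6 (Herpud1 chr8:94386179-94386478, plus strand; Syvn1 chr19:6046326-6046625, plus strand). Capitals mark the motifs.
Herpud1: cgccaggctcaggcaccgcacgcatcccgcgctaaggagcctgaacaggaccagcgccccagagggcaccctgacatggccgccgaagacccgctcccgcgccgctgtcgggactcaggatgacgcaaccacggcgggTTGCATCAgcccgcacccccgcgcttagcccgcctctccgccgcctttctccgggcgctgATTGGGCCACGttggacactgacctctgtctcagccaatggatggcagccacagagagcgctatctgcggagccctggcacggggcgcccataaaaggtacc
Syvn1: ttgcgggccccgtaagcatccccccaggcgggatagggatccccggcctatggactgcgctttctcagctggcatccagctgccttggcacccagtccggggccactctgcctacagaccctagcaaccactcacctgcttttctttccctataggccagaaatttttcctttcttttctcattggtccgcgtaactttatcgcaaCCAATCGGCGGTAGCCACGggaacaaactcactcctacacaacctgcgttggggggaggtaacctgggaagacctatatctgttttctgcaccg
In Herpud1 the capitals are TTGCATCA, the C/EBP-ATF response element read by ATF4, from 112 to 105 bases before the start, and ATTGGGCCACG, the ER stress response element II, from 52 to 42 bases before it. In Syvn1 they are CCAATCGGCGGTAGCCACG, an ER stress response element of the kind bound by ATF6 with NF-Y, from 44 to 26 bases before the start. The motifs searched on both strands were CCAAT and CCACG with any 9 bases between them, found in 0.119% of all 32851 promoter windows, ATTGG and CCACG with any 1 base between them (0.0365%), the unfolded protein response element TGACGTGG bound by XBP1 (0.676%), and TTGCATCA (0.895%). Of the genes with a negative difference 72 of 93 had a promoter in the table. The first motif stood in Syvn1, the second in Herpud1, the third in Stx5a, and TTGCATCA in Herpud1, Nupr1, Pycr1 and Vldlr. In the 66 of 90 matched genes with a positive difference no motif was found. Over the 8620 tested genes with a promoter the shares were 0.162%, 0.0928%, 1.09% and 0.650% in the same order, beside 1, 1, 1 and 4 of the 72 genes, so that TGACGTGG stood near its background (1.39% against 1.09%). A match describes the letters in the window only.

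Syvn1 (chromosome 19, 6046576 to 6053712) encodes HRD1, the ubiquitin ligase at the centre of the degradation channel. With control siRNA, Syvn1 rose from 20.3, 21.5, 20.1 and 22.2 to 103, 105, 114 and 136 FPKM. With Son siRNA, Syvn1 rose from 20.2, 19.7, 19.6 and 19.8 to 79.8, 79.8, 82.1 and 77.8 FPKM. DMSO levels overlapped between the siRNAs, while the tunicamycin libraries of Son siRNA all lay below those of control siRNA (log2 difference −0.42, SE 0.0877, adjusted p = 0.0295; −0.34 without library D). Derl1, a derlin of the same channel, rose from 47.2 ± 0.820 to 101 ± 9.504 FPKM with control siRNA and, with Son siRNA, from 49.2 ± 0.625 to 86.9 ± 1.59 FPKM (SD, n = 4; log2 difference −0.27, SE 0.0628, adjusted p = 0.0399). Selk, a selenoprotein of the derlin complex, stood at 46.01 ± 1.12 and 107 ± 13.2 FPKM against 49.6 ± 1.94 and 87.98 ± 5.45 FPKM (−0.37, adjusted p = 0.0483).

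Of the 32 genes of this list 4 had a called negative difference and none a positive one, 17 were negative and none positive at an unadjusted p under 0.05, and the median difference was −0.12 against 0.0091 over all genes tested. Without control tunicamycin library D the median was −0.098 and 7 genes were called. Derl3, a derlin that is nearly silent without stress, went from 0.346 to 0.562 FPKM in control DMSO to 20.6, 20.8, 23.6 and 33.8 FPKM in control tunicamycin. With Son siRNA, Derl3 went from 0.159 to 0.282 to 13.3, 13.6, 13.2 and 12.01 FPKM. All 4 Son tunicamycin libraries lay below the control ones, yet Derl3 was not called (−0.59, SE 0.154, adjusted p = 0.0590). It was called without library D, at −0.43 (adjusted p = 0.0161). Derl3 was already lower with Son siRNA in every DMSO library, at levels below the 1 FPKM added before the log. These differences therefore do not show a smaller linear fold.

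**Figure D2:**
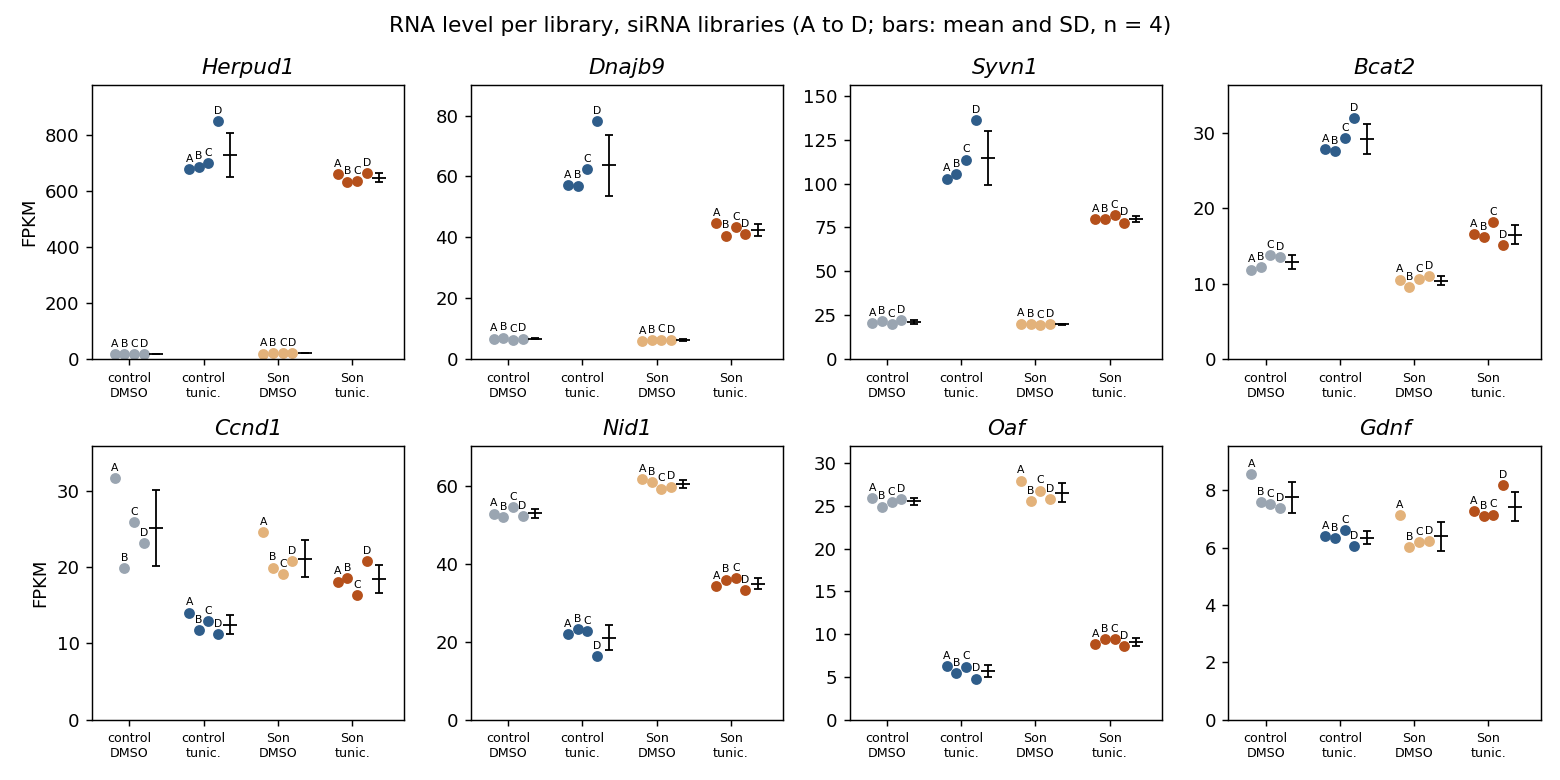
FPKM of Herpud1, Dnajb9, Syvn1, Bcat2, Ccnd1, Nid1, Oaf and Gdnf in each of the 16 siRNA libraries; points are libraries A to D and bars the mean and SD (n = 4). In the first 4 genes the Son tunicamycin points lie below the control tunicamycin points, and in the other genes above them, with control tunicamycin library D at 849.6 FPKM for Herpud1 and 16.4 FPKM for Nid1.

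Among ER chaperones Dnajb9 was the called gene. Dnajb9 (chromosome 12, 44205559 to 44210326), which encodes the BiP co-chaperone ERdj4 and is a target of XBP1, went from 6.73, 7.05, 6.41 and 6.73 to 57.2, 56.99, 62.3 and 78.2 FPKM with control siRNA. With Son siRNA, Dnajb9 went from 5.90, 6.29, 6.35 and 6.34 to 44.6, 40.5, 43.4 and 40.96 FPKM. The Son DMSO libraries lay just below the control ones, and the Son tunicamycin libraries lay well below the control ones, so that a 9.47-fold rise became a 6.82-fold rise (log2 difference −0.47, SE 0.102, adjusted p = 0.0329). Hspa5, which encodes BiP, the most abundant chaperone of the ER lumen, rose from 405, 368, 411 and 392 to 4526, 4199, 4301 and 5677 FPKM with control siRNA. With Son siRNA, Hspa5 rose from 336, 317, 370.3 and 350.3 to 3798, 3453, 3495 and 4127 FPKM. Its DMSO libraries overlapped between the siRNAs, its Son tunicamycin libraries were all lower than the control ones, and the difference was not called (−0.12, SE 0.114, adjusted p = 0.581). Library D carried most of it: without it the difference was −0.028 (adjusted p = 0.891).

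Creld2, an ER-resident protein, had a difference of −0.49 (adjusted p = 0.0508) and −0.36 without control tunicamycin library D (adjusted p = 0.00611). Fkbp11, a prolyl isomerase of the ER, behaved alike in value (−0.42, adjusted p = 0.0734; −0.30, adjusted p = 0.0316 without library D). Of 25 chaperones and co-chaperones 1 was called, 14 were negative and 1 positive at an unadjusted p under 0.05, and the median difference was −0.14. Without library D the median was −0.093 and 4 were called, all negative.

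Both ER oxidases of the ERO1 family rose less with Son siRNA. Ero1lb (chromosome 13, 12565874 to 12611396), the stress-induced paralogue, went from 1.62, 1.79, 1.98 and 1.83 to 12.7, 13.4, 12.6 and 16.8 FPKM with control siRNA. With Son siRNA, Ero1lb went from 2, 1.87, 2.05 and 2.03 to 10.6, 10.1, 10.5 and 10.1 FPKM. Its DMSO libraries overlapped between the siRNAs, and every Son tunicamycin library was below the control ones (log2 difference −0.47, SE 0.0944, adjusted p = 0.0259). Ero1l, the paralogue also raised by hypoxia, rose from 24.7 ± 1.60 to 73.4 ± 7.17 FPKM and, with Son siRNA, from 26.7 ± 1.95 to 58.3 ± 1.85 FPKM (log2 difference −0.43, SE 0.0876, adjusted p = 0.0295). Pdia4, a disulfide isomerase, had a difference of −0.39 that was not called (adjusted p = 0.0625) and of −0.28 that was called without library D (adjusted p = 0.00698). Of 18 isomerases and oxidases 2 were called and 7 negative at an unadjusted p under 0.05, with none positive, and the median was −0.033. Without library D the median was −0.013 and 4 were called.

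Among the sensors and transcription factors of the response Ern1 was called. Ern1 (chromosome 11, 106394650 to 106487852) encodes IRE1 itself. With control siRNA, Ern1 rose from 8.25, 9.24, 8.08 and 8.74 to 15.2, 15.1, 15.3 and 17.6 FPKM. With Son siRNA, Ern1 rose from 7.98, 8.40, 7.87 and 7.69 to 11.3, 11.2, 12.2 and 10.7 FPKM, with every tunicamycin library below the control ones (log2 difference −0.35, SE 0.0728, adjusted p = 0.0295). Ddit3, which encodes the PERK-arm factor CHOP, had a difference of similar size without a call (−0.36, SE 0.0937, adjusted p = 0.0574), from 543 ± 39.6 FPKM in control tunicamycin to 438 ± 16.5 FPKM in Son tunicamycin. Atf5, an ATF4-related factor, was not called either (−0.27, adjusted p = 0.0725).

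The central factors showed smaller differences. Atf4 rose 4.32-fold with control siRNA and 4.20-fold with Son siRNA (−0.040, SE 0.0552, adjusted p = 0.741). Xbp1 rose 5.34-fold and 5.12-fold (−0.064, SE 0.0439, adjusted p = 0.447), counting all its RNA and not the spliced form. Trib3, a pseudokinase raised by ATF4 and CHOP, had a difference of −0.088 (adjusted p = 0.431). Atf3 rose by 2.23 with both siRNAs on the log2 scale, with a difference of 0.0012 and an SE of 0.0720. In the list of 15 factors 1 was called, 5 were negative and none positive at an unadjusted p under 0.05, and the median was −0.040. A p above the threshold does not show that these responses were alike.

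Genes of membrane traffic between ER and Golgi had called differences in both directions. Stx5a, a Golgi syntaxin whose promoter window holds TGACGTGG, rose from 30.8 ± 2.03 to 51.1 ± 3.50 FPKM with control siRNA and, with Son siRNA, from 30.8 ± 1.14 to 39.9 ± 1.05 FPKM (log2 difference −0.35, SE 0.0675, adjusted p = 0.0249). Preb, the exchange factor that starts COPII vesicles, had a difference of −0.20 (adjusted p = 0.0397). Ergic1, a cargo protein of the intermediate compartment, fell less with Son siRNA (0.19, adjusted p = 0.0464; adjusted p = 0.0602 without library D). Of the 43 genes of the list 17 were negative and 1 positive at an unadjusted p under 0.05, and the median was −0.10 (−0.067 without library D).

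No gene was called among 24 genes of ER translocation, 40 of N-glycan assembly and trimming and 20 cytosolic aminoacyl-tRNA synthetases, at adjusted p under 0.05 by limma. At an unadjusted p under 0.05 these lists held 7, 9 and 4 negative genes and no positive gene, and all 24 translocation genes had a negative value. The medians were −0.088, −0.052 and −0.079, and −0.057, −0.019 and −0.014 without control tunicamycin library D. Examples are Srp9 and Srprb of the signal recognition system (−0.19 and −0.24, adjusted p = 0.0902 and 0.0964). Others are Gfpt1, the entry enzyme of hexosamine synthesis (−0.26, adjusted p = 0.0552), the glucosidase subunit gene Ganab (−0.15, adjusted p = 0.0615) and the glutaminyl-tRNA synthetase gene Qars (−0.15, adjusted p = 0.0974).

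**Figure D3:**
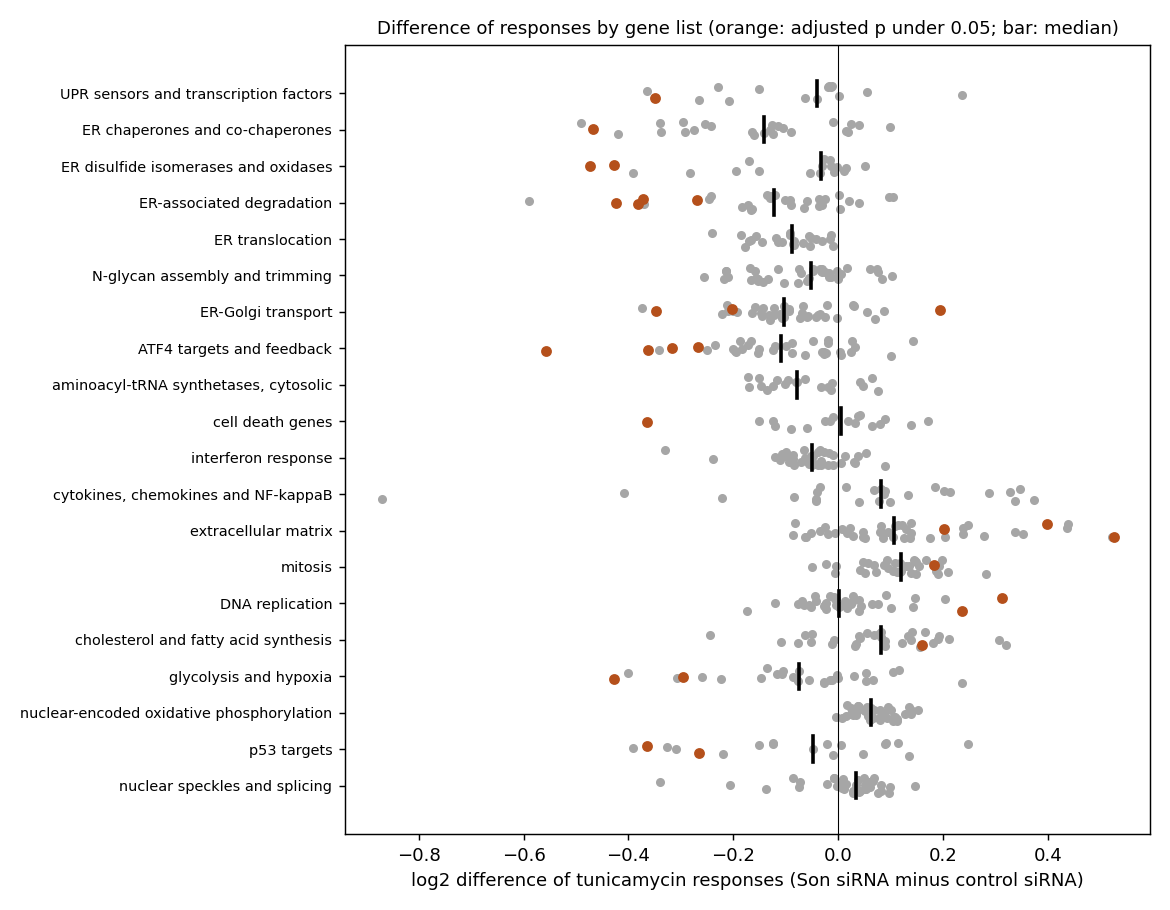
Log2 difference of responses (x axis, Son siRNA minus control siRNA) for every tested gene of the 20 gene lists (rows); orange points have an adjusted p under 0.05, grey points do not, and black bars are list medians. ER lists lie mostly left of 0 with medians down to −0.14 (chaperones), while mitosis (0.12) and extracellular matrix (0.11) lie mostly right of it.

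Of 36 tested targets of ATF4, 4 were called as rising less with Son siRNA and none as rising more. Nupr1 (chromosome 7, 126623249 to 126630861), a stress-induced chromatin protein, stood at 135, 141, 145 and 144 FPKM in control DMSO and 365, 345, 346 and 353 FPKM in control tunicamycin. With Son siRNA, Nupr1 stood at 153, 160.4, 167 and 151 FPKM in DMSO and 328, 319.8, 328 and 332 FPKM in tunicamycin. Its DMSO levels were higher with Son siRNA in every library and its tunicamycin levels lower in every library (log2 difference −0.27, SE 0.0471, adjusted p = 0.0187). The difference was called in all 16 fits with a library left out and was −0.27 without library D.

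Pycr1 (chromosome 11, 120635712 to 120643769), the mitochondrial enzyme of proline synthesis, had the largest negative difference of all called genes. With control siRNA, Pycr1 went from 1.57, 1.35, 1.38 and 1.53 to 5.89, 4.90, 5.68 and 8.28 FPKM. With Son siRNA, Pycr1 went from 0.967, 1.05, 0.971 and 0.976 to 3.14, 2.84, 3.02 and 2.64 FPKM. Son siRNA libraries were lower than control libraries in both treatments (log2 difference −0.56, SE 0.134, adjusted p = 0.0464; −0.43 without library D), and the call was held in 2 of 16 fits. Since these levels are low, the log2(FPKM + 1) scale understates each of the responses. Linear folds of the means were 4.25 with control siRNA and 2.94 with Son siRNA.

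Vldlr, a lipoprotein receptor, rose from 1.79 ± 0.232 to 9.92 ± 0.895 FPKM and, with Son siRNA, from 2.16 ± 0.105 to 8.61 ± 0.322 FPKM (−0.36, SE 0.0850, adjusted p = 0.0401). Gpt2, the mitochondrial alanine transaminase, rose from 6.58 ± 0.428 to 58.1 ± 5.96 FPKM and from 6.59 ± 0.166 to 46.4 ± 0.533 FPKM (−0.32, SE 0.0752, adjusted p = 0.0433). All 36 targets rose with both siRNAs, with medians of 2.15 and 2.10, 10 had a negative and none a positive difference at an unadjusted p under 0.05, and the median difference was −0.11 (−0.057 without library D). The stretches of the Nupr1, Pycr1 and Vldlr promoters around TTGCATCA are shown for comparison with Herpud1 (GRCm38.p6; Nupr1 chr7:126625533-126625620 and Pycr1 chr11:120643804-120643891, minus strand; Vldlr chr19:27216780-27216867, plus strand). Each is written 5′ to 3′ on the strand of the gene with the motif, or its reverse complement in Pycr1, in capitals.
Nupr1: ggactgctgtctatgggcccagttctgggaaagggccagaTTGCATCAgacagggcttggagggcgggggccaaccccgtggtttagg
Pycr1: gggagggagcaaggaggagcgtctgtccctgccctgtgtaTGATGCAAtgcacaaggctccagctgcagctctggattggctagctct
Vldlr: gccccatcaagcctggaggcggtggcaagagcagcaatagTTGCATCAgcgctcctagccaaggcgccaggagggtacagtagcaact
The motif lies from 110 to 103 bases before the start in Nupr1, from 103 to 96 in Pycr1 and from 200 to 193 in Vldlr. The Nupr1 start is the RefSeq one and lies inside the GENCODE span given above, downstream of the 5′ end of that span.

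Other genes with weaker rises lie outside the ER lists. Bcat2 (chromosome 7, 45570153 to 45589711), the mitochondrial transaminase of branched-chain amino acids, rose from 11.9, 12.2, 13.7 and 13.5 to 27.8, 27.6, 29.3 and 31.9 FPKM with control siRNA. With Son siRNA, Bcat2 rose from 10.5, 9.55, 10.6 and 10.96 to 16.6, 16.2, 18.1 and 15.1 FPKM. The Son tunicamycin libraries lay far below the control ones, and the Son DMSO libraries all below them as well (log2 difference −0.51, SE 0.0847, adjusted p = 0.0187). It was called in all 16 fits with a library left out.

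Acot2, a mitochondrial acyl-CoA thioesterase, rose 13.8-fold with control siRNA and 9.81-fold with Son siRNA (−0.43, adjusted p = 0.0249). Mtm1, a phosphoinositide phosphatase of endosomes, rose 7.58-fold and 4.85-fold (−0.49, adjusted p = 0.0387). Hid1, a protein of dense-core vesicle formation, rose 3.88-fold and 2.76-fold (−0.47, adjusted p = 0.0353). Weaker rises were also called for the cytokine-signal inhibitor Socs2 (−0.43) and the ubiquitin ligase Mib2 (−0.42), at adjusted p = 0.0295 and 0.0259. Prg4, which encodes the joint lubricant lubricin, rose from 4.12 ± 0.832 to 5.50 ± 0.296 FPKM with control siRNA and stood at 4.95 ± 0.363 and 4.27 ± 0.268 FPKM with Son siRNA, where its response was not called (−0.53, adjusted p = 0.0393).

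Of the 39 called genes with a negative difference that were lower with Son siRNA in DMSO already, a few are given here, chosen after their values were seen. Aaas, which encodes a nuclear pore protein, had the smallest adjusted p of all genes. It stood at 52.9, 53.99, 53.4 and 55.3 FPKM in control DMSO and rose to 61.3, 60.5, 63.8 and 63.8 FPKM in control tunicamycin. With Son siRNA, Aaas stood at 42.8, 43.3, 43.5 and 43.3 and 41, 41.2, 42.6 and 41.1 FPKM, so that tunicamycin moved it upward with control siRNA and slightly downward with Son siRNA (log2 difference −0.26, SE 0.0346, adjusted p = 0.00854). Dcaf8, a substrate receptor of CUL4 ubiquitin ligases, (−0.32, adjusted p = 0.0187), the kinase gene Tyk2 of interferon receptors (−0.22, adjusted p = 0.0249), the ubiquitin-conjugating enzyme gene Ube2k (−0.26, adjusted p = 0.0187) and Apba3 (−0.29, adjusted p = 0.0353) were also lower in DMSO, by −0.40, −0.46, −0.39 and −0.49 on the log2 scale. Tcirg1, a subunit of the vacuolar proton pump, showed no call in DMSO (−0.094, adjusted p = 0.0728). It rose from 46.6 ± 2.24 to 63.1 ± 3.18 FPKM with control siRNA against 43.6 ± 0.711 and 45.7 ± 1.87 FPKM with Son siRNA (−0.36, SE 0.0557, adjusted p = 0.0141).

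Among p53 targets 2 of 19 genes were called, both negative. Pmaip1, which encodes the BH3-only protein NOXA, rose from 3.53 ± 0.282 to 5.66 ± 0.315 FPKM with control siRNA and, with Son siRNA, from 3.85 ± 0.248 to 4.55 ± 0.475 FPKM (−0.36, SE 0.0875, adjusted p = 0.0464). Ccng1, cyclin G1, stood at 21.7 and 21.6 FPKM with control siRNA and fell from 20.5 to 16.8 FPKM with Son siRNA (−0.27, SE 0.0597, adjusted p = 0.0353). Gadd45a was not called (−0.39, adjusted p = 0.0590). At an unadjusted p under 0.05 (8.48% negative and 10.5% positive over all genes tested), 7 of the 19 were negative and 2 positive. Their median was −0.047, and with 1 library left out it ran from −0.017 (without Son tunicamycin library D) to −0.092 (without Son tunicamycin library C). Of 18 cell death genes Pmaip1 was the called member, 3 were negative and 1 positive at that level, and the median was 0.0050 (−0.019 to 0.028 with 1 library left out).

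Genes with a positive difference mostly fell less with Son siRNA, among them genes of the extracellular matrix. Nid1 (chromosome 13, 13437551 to 13512269), which encodes the basement membrane linker nidogen-1, fell from 52.8, 51.9, 54.5 and 52.3 to 21.9, 23.2, 22.8 and 16.4 FPKM with control siRNA. With Son siRNA, Nid1 fell from 61.6, 60.8, 59.2 and 59.7 to 34.3, 35.9, 36.2 and 33.2 FPKM. It was higher with Son siRNA in both treatments, and more so in tunicamycin (log2 difference 0.53, SE 0.103, adjusted p = 0.0251). Lamc1, the laminin chain that nidogen binds, fell from 69.8 ± 1.98 to 57.8 ± 1.47 FPKM and, with Son siRNA, from 76.3 ± 2.05 to 72.8 ± 0.404 FPKM (0.20, SE 0.0382, adjusted p = 0.0231). Cyr61, a matrix protein of the CCN family, fell from 102, 101, 104 and 109 to 48.5, 47.5, 52.5 and 42.4 FPKM with control siRNA. With Son siRNA, Cyr61 fell from 90.3, 90.7, 92.6 and 93.1 to 57.6, 51.98, 57.9 and 54.95 FPKM, so that a gene lower in every DMSO library ended with most tunicamycin libraries higher (log2 difference 0.40, SE 0.0700, adjusted p = 0.0187; called in all 16 fits).

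Of 44 extracellular matrix genes tested 3 were called, all positive, 14 were positive and none negative at an unadjusted p under 0.05, and the median was 0.11. The list fell in tunicamycin with both siRNAs, 36 genes with control siRNA and 34 with Son siRNA. Without control tunicamycin library D the median was 0.069 and 7 genes were called. Plau, which encodes urokinase, a secreted protease, had 6.98, 6.72, 6.71 and 4.95 FPKM in control tunicamycin and 7.87, 7.98, 8.05 and 7.90 FPKM in Son tunicamycin (0.42, SE 0.0902, adjusted p = 0.0327). Oaf (chromosome 9, 43221235 to 43239911), a secreted protein, fell from 25.9, 24.9, 25.4 and 25.8 to 6.30, 5.45, 6.22 and 4.802 FPKM with control siRNA. With Son siRNA, Oaf fell from 27.9, 25.6, 26.8 and 25.7 to 8.82, 9.44, 9.44 and 8.64 FPKM, from similar DMSO levels to clearly separate tunicamycin levels (log2 difference 0.54, SE 0.0811, adjusted p = 0.0141).

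Ccnd1 (chromosome 7, 144929931 to 144939925), cyclin D1, had the largest difference of all called genes. With control siRNA, Ccnd1 stood at 31.6, 19.9, 25.8 and 23.1 FPKM in DMSO and fell to 14.03, 11.7, 12.9 and 11.2 FPKM in tunicamycin. With Son siRNA, Ccnd1 stood at 24.6, 19.9, 19.03 and 20.8 FPKM and at 18.1, 18.5, 16.3 and 20.7 FPKM, a change that was not called (−0.18, adjusted p = 0.154). DMSO levels overlapped between the siRNAs and tunicamycin levels did not (log2 difference 0.76, SE 0.158, adjusted p = 0.0295). It was called in 8 of 16 fits.

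Called positive differences outside the gene lists included that of Gdnf. Gdnf (chromosome 15, 7810846 to 7837575), a neurotrophic factor of the TGF-β superfamily, fell with control siRNA from 8.56, 7.58, 7.52 and 7.38 to 6.40, 6.33, 6.61 and 6.07 FPKM. With Son siRNA, Gdnf rose from 7.14, 6.02, 6.21 and 6.24 to 7.29, 7.11, 7.16 and 8.17 FPKM, so the direction itself differed between the siRNAs (log2 difference 0.44, SE 0.0756, adjusted p = 0.0187; called in all 16 fits). Kcnn4, a calcium-gated potassium channel gene (0.39), the caveolar gene Sdpr (0.40), the receptor gene Lgr6 (0.40) and the mitochondrial protein gene Lactb (0.38) had called positive differences at adjusted p = 0.0329, 0.0464, 0.0390 and 0.0368. Without control tunicamycin library D, Sdpr was at adjusted p = 0.0510. Hist1h2bc, a histone H2B gene, was called too (0.41, adjusted p = 0.0329), but its near-identical copies make its level uncertain, and poly(A) selection captures few histone RNAs.

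Further genes with a positive difference were chosen after their values were seen. Hbegf, an EGF receptor ligand, fell from 31.6, 30.2, 29.8 and 30.9 to 19.9, 18.4, 19.6 and 18.4 FPKM with control siRNA and, with Son siRNA, from 25.9, 27.03, 25.9 and 26.98 to 22, 20.7, 20.4 and 23.1 FPKM (log2 difference 0.37, SE 0.0540, adjusted p = 0.0141; called in all 16 fits). Dusp5, a phosphatase of ERK induced by growth factors, fell from 17.04 ± 1.13 to 11.99 ± 0.287 FPKM with control siRNA and went from 13.2 ± 0.865 to 12.1 ± 0.825 FPKM with Son siRNA (0.35, SE 0.0728, adjusted p = 0.0295). Fosl1, an AP-1 subunit, rose with both siRNAs, by 0.18 and 0.54 on the log2 scale, and more with Son siRNA (0.36, SE 0.0863, adjusted p = 0.0464; adjusted p = 0.0630 without library D). Cd44, the hyaluronan receptor, fell from 133 ± 11.8 to 95.9 ± 4.08 FPKM with control siRNA and stood at 126 ± 3.53 and 117 ± 6.66 FPKM with Son siRNA (0.36, SE 0.0759, adjusted p = 0.0327). Smad7, a feedback inhibitor of TGF-β signalling, stood at 8.03, 7.78, 7.97 and 7.44 FPKM in control tunicamycin and at 10.3, 9.61, 9.18 and 10.4 FPKM in Son tunicamycin (0.32, SE 0.0561, adjusted p = 0.0187; called in all 16 fits). Snai1, a repressor of epithelial genes, fell −1.02 with control siRNA and −0.71 with Son siRNA on the log2 scale (0.31, adjusted p = 0.0295).

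Tubulin and actomyosin genes were likewise chosen after their values were seen. Of 11 tested α- and β-tubulin genes 6 were called, all positive, beside 0.827% of all genes tested. Since the family was chosen with its values known, this count is no test. The differences of the 11 ran from −0.29 to 0.29 with a median of 0.18. The 1 negative value (−0.29, adjusted p = 0.315) was that of Tubb3. Their median response was −0.77 with control siRNA and −0.60 with Son siRNA. Tuba1b stood at 854 ± 28.99 and 551 ± 19.7 FPKM with control siRNA against 890.5 ± 10.5 and 650.4 ± 15.4 FPKM with Son siRNA (0.18, SE 0.0434, adjusted p = 0.0483; adjusted p = 0.0634 without library D). The others were Tuba1c (0.19), Tuba4a (0.22), Tubb5 (0.19), Tubb6 (0.23) and Tubb2a (0.29), with adjusted p from 0.0295 to 0.0464. Tubulin genes are close paralogues, so their reads may be shared and they are not independent. The actin crosslinker gene Actn1 (0.27, SE 0.0638, adjusted p = 0.0399) and the non-muscle myosin gene Myh9 (0.23, SE 0.0495, adjusted p = 0.0329) fell with control siRNA and were not called as changed with Son siRNA (−0.091 and −0.0034).

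Mitotic genes fell in tunicamycin, 36 of 36 with control siRNA and 35 with Son siRNA, and their differences leaned positive. Cenpa, the centromeric histone variant, was the called gene, with 42.4, 42.3, 43.9 and 41.1 FPKM in control tunicamycin and 48.3, 49.8, 49.1 and 46.6 FPKM in Son tunicamycin (0.18, SE 0.0426, adjusted p = 0.0401; adjusted p = 0.0512 without library D). Anln, the cytokinesis scaffold anillin, was not called (0.19, adjusted p = 0.0523). At an unadjusted p under 0.05, 22 of the 36 were positive and none negative, with a median of 0.12 (0.10 without library D). Among 37 DNA replication genes the thymidine kinase gene Tk1 (0.31, SE 0.0680, adjusted p = 0.0329) and the cyclin gene Ccne2 (0.24, SE 0.0547, adjusted p = 0.0391) were called positive. That list leaned neither way, with 5 positive and 3 negative genes at an unadjusted p under 0.05 and a median of 0.0016. Over all genes tested 10.5% were positive and 8.48% negative at that level. Tk1 was lower with Son siRNA in both treatments, at 76.5 ± 2.66 against 114 ± 1.08 FPKM in DMSO and 61.6 ± 1.34 against 74.3 ± 6.78 FPKM in tunicamycin.

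Metabolic lists held few calls. Acly, which makes cytosolic acetyl-CoA, was the called gene of 32 in cholesterol and fatty acid synthesis (0.16, SE 0.0334, adjusted p = 0.0295), where 9 were positive and 1 negative at an unadjusted p under 0.05 and the median was 0.082 (0.046 without control tunicamycin library D). Slc2a1, the glucose transporter GLUT1, was called negative (−0.30, SE 0.0676, adjusted p = 0.0372; adjusted p = 0.0507 without library D). It stood at 71.5 and 70.01 FPKM with control siRNA and fell from 66.7 to 52.98 FPKM with Son siRNA. With Ero1l it made up the 2 called genes of 29 in glycolysis and hypoxia (1 positive and 5 negative at an unadjusted p under 0.05, median −0.074, which became 0.011 without control DMSO library A). No gene was called by limma among 42 nuclear genes of oxidative phosphorylation, of which 10 were positive and none negative at an unadjusted p under 0.05 (median 0.062). The smallest adjusted p there was that of Atp5a1, an ATP synthase subunit gene (0.13, adjusted p = 0.0882).

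Interferon genes were lower with Son siRNA without a called change of response. Of 40 genes 39 were lower with Son siRNA in DMSO (16.1% of all genes tested) and all 40 in tunicamycin (20.4%), while limma called no difference of responses and 1 gene was negative and none positive at an unadjusted p under 0.05. The median of −0.049 became −0.105 without control tunicamycin library D, −0.106 without Son DMSO library B and 0.011 without Son DMSO library C. Stat2 (−0.24, adjusted p = 0.259) and Mx1 (−0.33, adjusted p = 0.298) are examples. Among 25 cytokine, chemokine and NF-κB genes none was called, with 6 positive and 3 negative at that level and a median of 0.081. The chemokine gene Ccl2 had 159, 146, 165 and 119 FPKM in control tunicamycin and 201, 192, 203 and 199.9 FPKM in Son tunicamycin (0.37, SE 0.0998, adjusted p = 0.0635; 0.28, adjusted p = 0.0233 without library D). Lcn2, which encodes lipocalin 2, ranged from 2.79 to 8.42 FPKM in control tunicamycin, where library D was highest, and was not called (−0.87, SE 0.268, adjusted p = 0.0964). Of 40 genes of nuclear speckles and splicing none was called, 3 were positive and 2 negative at that level, and the median was 0.033 (0.019 without control tunicamycin library D). Over all genes tested 10.5% were positive and 8.48% negative at that level. Neat1, the RNA of paraspeckles, had a difference of −0.34 (adjusted p = 0.171).

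**Figure D4:**
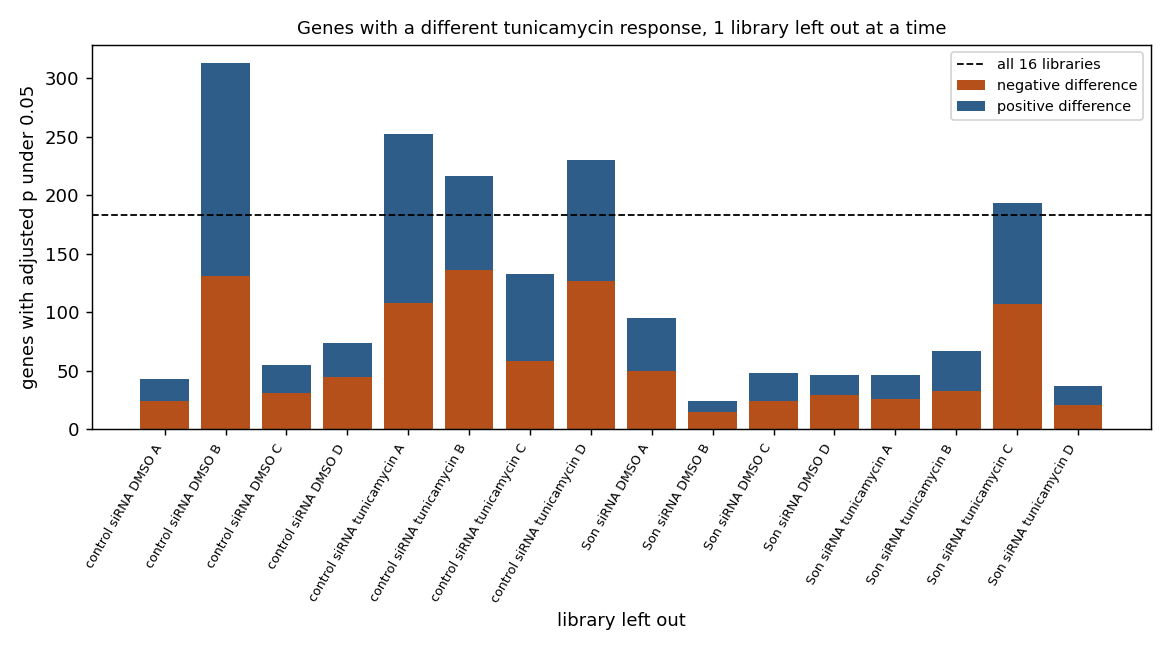
Number of genes with an adjusted p under 0.05 for the difference of responses (y axis) when each of the 16 libraries was left out (x axis), split by direction; the dashed line is the count with all libraries (183). The count ran from 24 without Son DMSO library B to 313 without control DMSO library B.

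The same difference was read in the CRISPRa libraries, in which a single guide RNA (sgRNA) was either a control or aimed at Son, with DMSO or tunicamycin (3 libraries per group). No rise of Son was called there. Son stood at 46.4, 47.5 and 48.3 FPKM with control sgRNA in DMSO and, in the libraries labelled Son sgRNA, at 51.9 FPKM in A, 44.6 in B and 29.8 in C (log2 difference −0.20, SE 0.156, adjusted p = 0.383). In tunicamycin the levels were 42.4, 41.2 and 43.7 FPKM with control sgRNA and 45.3, 35.03 and 42.4 FPKM with Son sgRNA (−0.059, SE 0.156, adjusted p = 0.897). Limma called 0 of 11218 genes (0%) for the difference of responses, and 908 (8.09%) had an unadjusted p under 0.05. Of the 183 genes called with Son siRNA 179 were tested, and 69 had the same sign. The share with the same sign over all genes tested in both was not taken. The count is thus not read as a like or an opposite response.

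Of the genes with the largest differences, Ero1lb had 0.34 (SE 0.124) in the CRISPRa libraries against −0.47 with siRNA. Dnajb9 had 0.23 (SE 0.123) and Oaf had −0.35 (SE 0.144), likewise with signs opposite to those with siRNA. Herpud1 had 0.30 (SE 0.106). Ccnd1 had −0.012 (SE 0.111), near 0, and Cyr61 had 0.12 (SE 0.0963), with the sign of the siRNA libraries. Each of these 6 values had an adjusted p of at least 0.600, and whether the siRNA and CRISPRa values differ was not tested.

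**Figure D5:**
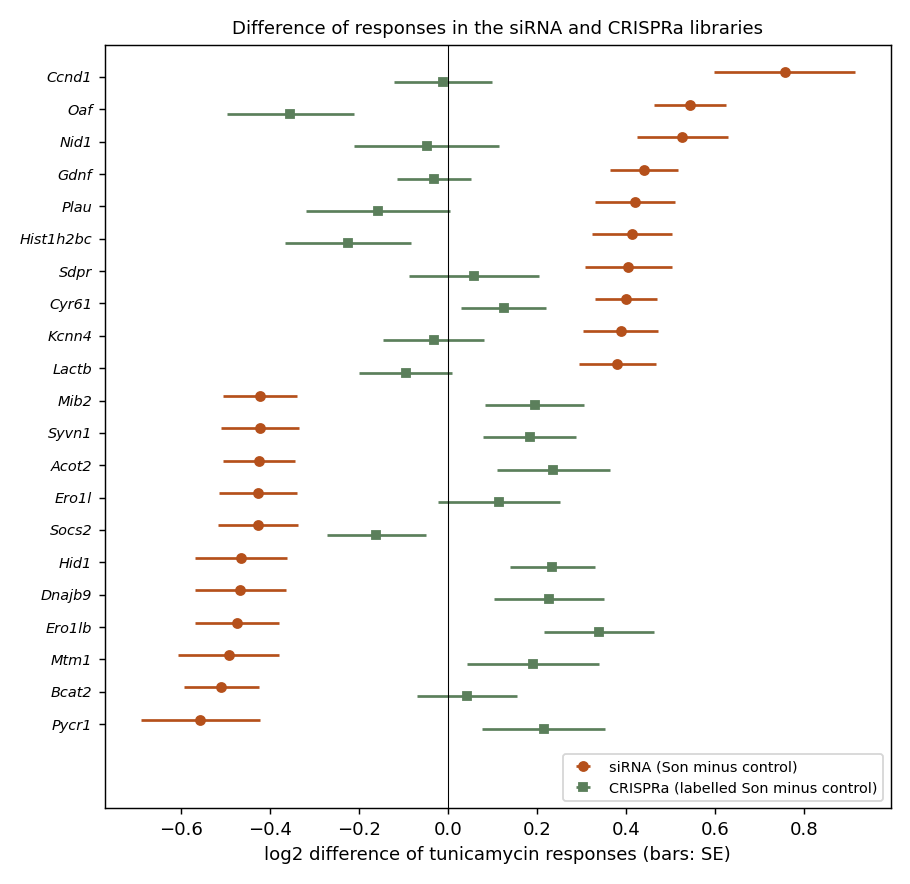
Log2 difference of tunicamycin responses (x axis, bars: SE) in the siRNA libraries (circles) and in the CRISPRa libraries (squares, labelled Son sgRNA minus control sgRNA) for the genes of largest difference that were tested in both. The siRNA values are at least 0.38 in size, while the CRISPRa values lie between −0.35 (Oaf) and 0.34 (Ero1lb).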

How the data were processed

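Poly(A)-selected RNA was extracted with a PureLink kit and made into TruSeq stranded libraries, per the labels' protocols. The authors deposited FPKM values, per the title of the table. The submitters' processing notes name build mm10, Trimmomatic, Trim Galore, HISAT2, Salmon and Cufflinks. Neither their versions and settings nor which of them made this table is given there.

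Columns were matched to groups by name and carry letters that could not be tied to the numbered labels. Scramble columns were taken as control siRNA. Of 24886 lines 27 had become dates and were omitted (17 of them averaged 1 FPKM or more), and 275 symbols on 807 lines kept the line with the highest mean, leaving 24327 symbols. Genes with a mean of at least 1 FPKM over the 16 libraries were fitted as log2(FPKM + 1) with limma 3.58.1 in R 4.3.3 (a term per group, no block, eBayes with trend, 12 residual degrees of freedom). Tests were two-sided and were checked on simulated data with independent noise and planted differences of 0.5 or more. Of those of 0.5, 94% were recovered. Most called differences were smaller than 0.5, and the check does not cover them. The CRISPRa libraries were fitted separately by the same steps.

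Low values of under 0.02 FPKM gave the relative depths. Absolute depth is unknown, so no counting interval is given. Coordinates are GENCODE's for GRCm38 (mm10) and promoters RefSeq's for GRCm38.p6, matched by symbol.

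The members, the 20 gene lists and the 6 marker lists were chosen with earlier results of these data known. Genes named are Son and 8 stress genes, the 12 largest called differences in each direction with at least 5 FPKM in the highest group (predicted genes and pseudogenes passed over), and up to 3 genes of smallest adjusted p per list. Of these, 1 gene is not reported here and was left out of its list. A further 24 were chosen after their values were seen. Those 24 are Selk, Derl3, Hbegf, Fosl1, Cd44, Dusp5, Smad7, Snai1, Twist2, Aaas, Dcaf8, Tyk2, Ube2k, Apba3, Actn1, Myh9, Tcirg1 and the 7 tubulin genes. Alternatives covered the pseudocount, filter, scaling, library weights, variance trend, letter block, transcript length, lines sharing a symbol and each library left out.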

Additional observations from a re-analysis of the deposited data

Results flagged for a closer look

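Within groups of 4 libraries, a library was marked when its gap to the nearest of the others took up a larger share of the group's range than Dixon's test allows at its 95% level, which chance alone does in about 1 of 20 groups. Of 352 group values of the genes named, 40 were marked, 15 of them in library D of control tunicamycin. There, library D was highest for Herpud1 (849.6 FPKM), Mtm1 (11.7 FPKM), Ero1l (83.99 FPKM), Mib2 (16.03 FPKM), Ern1 (17.6 FPKM), Atf5 (202 FPKM), Creld2 (649 FPKM), Fkbp11 (82.8 FPKM), Pdia4 (543 FPKM), Derl1 (115 FPKM), Vldlr (11.3 FPKM), Gpt2 (67.1 FPKM) and Gadd45a (98.2 FPKM). There, library D was lowest for Plau (4.95 FPKM) and Tk1 (64.3 FPKM). 

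In control DMSO the marked values were Gdnf in library A (8.56 FPKM, high), Socs2 in library A (3.46 FPKM, low), Srprb in library D (31.4 FPKM, high), Gfpt1 in library A (21.01 FPKM, low), Gpt2 in library B (7.21 FPKM, high), Mx1 in library B (5.47 FPKM, high), Tk1 in library C (113 FPKM, low), Slc2a1 in library A (65.4 FPKM, low) and Dcaf8 in library A (32.6 FPKM, low). In control tunicamycin the marked values were Snai1 in library C (8.64 FPKM, high). In Son DMSO the marked values were Atf4 in library B (160.3 FPKM, low), Dnajb9 in library A (5.90 FPKM, low), Hist1h2bc in library D (65.8 FPKM, high), Pycr1 in library B (1.05 FPKM, high), Gfpt1 in library C (19.3 FPKM, high), Tuba1b in library A (906 FPKM, high), Tuba1c in library A (446 FPKM, high), Cd44 in library A (132 FPKM, high) and Twist2 in library B (50.98 FPKM, low). In Son tunicamycin the marked values were Gdnf in library D (8.17 FPKM, high), Lactb in library D (12.5 FPKM, high), Prg4 in library C (4.67 FPKM, high), Stx5a in library C (41.4 FPKM, high), Aaas in library C (42.6 FPKM, high) and Tyk2 in library D (4.34 FPKM, low). 

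The tunicamycin responses with Son and control siRNA differed by the interaction test for 183 genes. Their log2 differences (Son siRNA minus control siRNA) are given here for the genes named. Negative values were those of Pycr1 (−0.56), Prg4 (−0.53), Bcat2 (−0.51), Mtm1 (−0.49), Ero1lb (−0.47), Dnajb9 (−0.47), Hid1 (−0.47), Socs2 (−0.43), Acot2 (−0.43), Ero1l (−0.43) and Mib2 (−0.42). Next came Syvn1 (−0.42), Herpud1 (−0.38), Selk (−0.37), Vldlr (−0.36), Pmaip1 (−0.36), Tcirg1 (−0.36), Ern1 (−0.35), Stx5a (−0.35), Dcaf8 (−0.32), Gpt2 (−0.32) and Slc2a1 (−0.30). Smaller were Apba3 (−0.29), Derl1 (−0.27), Nupr1 (−0.27), Ccng1 (−0.27), Ube2k (−0.26), Aaas (−0.26), Tyk2 (−0.22) and Preb (−0.20). Positive values were those of Ccnd1 (0.76), Oaf (0.54), Nid1 (0.53), Gdnf (0.44), Plau (0.42), Hist1h2bc (0.41), Sdpr (0.40), Lgr6 (0.40), Cyr61 (0.40), Kcnn4 (0.39) and Lactb (0.38). Next came Hbegf (0.37), Fosl1 (0.36), Cd44 (0.36), Dusp5 (0.35), Smad7 (0.32), Tk1 (0.31), Snai1 (0.31), Tubb2a (0.29), Twist2 (0.28), Actn1 (0.27) and Ccne2 (0.24). Smaller were Myh9 (0.23), Tubb6 (0.23), Tuba4a (0.22), Lamc1 (0.20), Tubb5 (0.19), Ergic1 (0.19), Tuba1c (0.19), Cenpa (0.18), Tuba1b (0.18) and Acly (0.16).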

How the results depend on the processing

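The count of 183 called genes became 69 with no filter on low values (16207 genes tested), 313 with quantile normalization, 299 with median-ratio scaling, 386 with array weights and 285 with the letters as a replicate block. With the other planned settings it lay between 145 (no mean trend) and 269 (length trend removed). Leaving out 1 library gave 24 to 313 genes. The count moved by over 1.5 times without control DMSO library A (43), B (313), C (55) or D (74), without Son DMSO library A (95), B (24), C (48) or D (46), and without Son tunicamycin library A (46), B (67) or D (37). Of the 183, 172 were also called with quantile normalization, 182 with median-ratio scaling and 174 with the replicate block. The split into positive and negative calls was 90 and 93 as reported, 132 and 181 with quantile normalization and 114 and 185 with median-ratio scaling, and no setting moved the median difference of all genes by over 0.1. Correlations of deviations could not decide whether the letters pair the libraries, since their ranges overlap. The 24 same-letter values ran from −0.189 to 0.174, and those between other letters from −0.241 to 0.327. Between control and Son tunicamycin the same-letter values were −0.043, 0.174, 0.135 and 0.0855 (A to D). Other letters there gave −0.144 to 0.11. With 1 library left out, list medians crossed 0 for interferon (−0.106 to 0.011), cell death (−0.019 to 0.028), glycolysis and hypoxia (−0.099 to 0.011) and DNA replication (−0.0052 to 0.016). They moved by over 1.5 times without a change of sign for p53 targets (−0.092 to −0.017), UPR factors (−0.069 to −0.026), isomerases (−0.049 to −0.013), synthetases (−0.11 to −0.014), N-glycan genes (−0.076 to −0.019), ATF4 targets (−0.14 to −0.057), translocation (−0.12 to −0.057), ER-Golgi transport (−0.13 to −0.067), chaperones (−0.19 to −0.093), extracellular matrix (0.069 to 0.14), cholesterol and fatty acid synthesis (0.046 to 0.11) and nuclear speckles (0.019 to 0.038). Except for p53 targets and UPR factors, the value nearest 0 in these lists was that without control tunicamycin library D. The medians of ER-associated degradation, cytokines, mitosis and oxidative phosphorylation moved by less. Atf3, near 0, changed sign with log2(FPKM + 5) (−0.028), median-ratio scaling (−0.013) and length trend removed (−0.0058), and in 8 of 16 fits without 1 library, whose values ran from −0.031 to 0.034. Hspa5 was 0.049 with quantile normalization. The other named genes kept their direction in every setting run. Of the 183, 23 were called in all 16 fits without 1 library. The causes were not tested. Precision rests on 4 libraries per group, and as absolute depth is unknown no counting error is given.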
